A study of Mus musculus with 4 samples.

Results

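The genes described here are 10 targets of p53 that are known for slowing or stopping cell division: Cdkn1a, Ccng1, Btg2, Gtse1, Plk2, Plk3, Gadd45a, Sesn1, Zmat3 and Phlda3. They were taken from this list of symbols and matched to the Ensembl gene IDs of the raw count table. All 10 were found among its 54532 gene IDs, and all 10 passed the filter on low counts that left 13306 genes. RNA was sequenced from primary mouse embryonic fibroblasts (MEFs), a culture of connective-tissue cells from whole embryos, with 1 library for each of 4 genotypes on C57BL/6. The groups were wild type (WT), Zfp871-/-, Trp53-/- and the double null, Trp53-/-; Zfp871-/-. All cells came from embryos of 12.5 to 13.5 days, were at passage 4 and were dividing when RNA was taken, and no treatment is named. WT cells could come from either of the study's crosses, Zfp871 heterozygotes with each other or double heterozygotes with each other; the sources used here do not say which cross gave the sequenced WT library, how the null alleles were made or whether embryos were pooled.

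The protein p53, encoded by Trp53, binds DNA as a tetramer at a site made of a pair of adjoining decamers and switches on the gene nearby. Its best known target for growth arrest is Cdkn1a, whose product p21 inhibits cyclin-dependent kinases and so keeps RB-family proteins bound to E2F factors, which holds down genes of S phase and mitosis. MEFs in culture are under oxygen and culture stress, and p53 is active in them without added damage. The zinc finger protein encoded by Zfp871 is tied in the series title to p53 and its inhibitor Mdm2.

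The stretches near the start sites of members in which a match to the p53 consensus was found are shown first. They are from RefSeq on GRCm38.p6, 5′ to 3′ on the strand of the gene, with windows from 250 bases before to 50 bases after each annotated start. 9 of the 10 members had 12 such windows among 32851 windows in all. Capitals mark a 20-base p53 site (a pair of adjoining decamers, at most 1 letter off the consensus) in Cdkn1a, Ccng1 and Gtse1, and a single decamer with no letter off in Sesn1 and Gadd45a.
Cdkn1a, chr17:29090859-29090978, plus strand: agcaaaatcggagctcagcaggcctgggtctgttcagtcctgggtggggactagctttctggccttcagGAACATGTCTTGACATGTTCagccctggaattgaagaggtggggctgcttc
Ccng1, chr11:40755407-40755526, minus strand: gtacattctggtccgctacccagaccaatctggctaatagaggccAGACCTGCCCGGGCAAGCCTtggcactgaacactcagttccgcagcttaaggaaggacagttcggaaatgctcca
Gtse1, chr15:85859945-85859964, plus strand: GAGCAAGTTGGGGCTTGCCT
Sesn1, chr10:41887219-41887318, plus strand: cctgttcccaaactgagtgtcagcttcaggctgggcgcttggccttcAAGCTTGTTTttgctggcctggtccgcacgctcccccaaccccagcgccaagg
Gadd45a, chr6:67037408-67037497, minus strand: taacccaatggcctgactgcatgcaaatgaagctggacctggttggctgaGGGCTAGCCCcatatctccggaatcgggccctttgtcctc

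The 20-base site of Cdkn1a began 51 bases before the first annotated start and 2841 bases before the second, which lies 2790 bases downstream. That of Ccng1 began 195 bases before the start, and that of Gtse1 began 1 base before its second start. The decamer began 173 bases before the second start in Sesn1 and 40 bases before the start in Gadd45a. A decamer with no letter off, searched on both strands by the p53 consensus, was present in 5 of the 12 member windows and in 8.36% of all windows. The 20-base site, a search added after values had been seen, was present in 3 of the 12 and in 29 of 32851 windows (0.0883%). A pair of decamers with no letter off and at most 13 bases apart, likewise an added search, was present in 1 of the 12, that of Cdkn1a, and in 24 of 32851 windows (0.0731%). Of the 26 other genes with the 20-base site in a window, 4 passed the filter on low counts. Among these 4, 1 gene, Rps27l, fell with Trp53 loss (log2 fold change -0.93, edgeR quasi-likelihood test, adjusted p = 0.0483), beside 4.31% of all genes. Rps27l is also in the list of other p53 targets used below, which was chosen with earlier results of these libraries known. The cell cycle element TTTGAA, which marks many genes held down through p21 and RB-family proteins, was in 0 of the 12 member windows and in 17.9% of all. CCAAT was in 7 of the 12 (37.4% of all windows) and GGGCGG, the core of the SP1 motif, in 8 of the 12 (35.7% of all), both strands counted for each motif. These matches describe letters in the windows, and a missing match says nothing on the factor.

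The libraries held 19303167 to 22324599 counts. Because each genotype had 1 library, a ratio of a pair of libraries compares those libraries, has no replicate check and carries an exact (Clopper-Pearson) 95% interval for counting error only. The only test was an additive fit of Trp53 and Zfp871 genotype over all 4 libraries in edgeR. It takes the difference for each gene loss to be the same on both backgrounds of the other gene and has 1 residual degree of freedom. Trp53 counts were 2383, 2413, 1233 and 1382, and Zfp871 counts were 660, 327, 784 and 307, both for WT, Zfp871-/-, Trp53-/- and the double null in turn, the order kept for all sets of 4 values below, so each targeted gene was lowest in both libraries labelled null for it. Fibroblast markers summed to 22100 to 34600 CPM (counts scaled to library size), all 7 detected in each library. Macrophage markers were higher in the Trp53-null libraries, and the summed CPM of chondrocyte markers was highest in WT. Both sets are given below beside the results they move with.

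Levels per gene length, as the deposited FPKM, spread the members over a wide range in WT. Ccng1 (243 FPKM), Phlda3 (211) and Cdkn1a (207) stood at ranks 142, 163 and 167 of the 13306 genes. Btg2 (36.9), Plk2 (32.3), Gtse1 (32.1) and Zmat3 (22.1) were in the middle, and Gadd45a (6.90), Plk3 (4.97) and Sesn1 (4.23) were lowest. With 1 library per genotype, no spread between cultures is available to separate neighbours in this order. In Trp53-/- the order of FPKM changed: Plk2 (46.1) was the most abundant of the 10, ahead of Phlda3 (31.5), Ccng1 (20.8) and Gtse1 (13.6), and Cdkn1a (4.37) had moved to rank 7562 of the 13306 genes. In the double null Plk2 (42.0), Phlda3 (35.1), Ccng1 (19.7) and Gtse1 (15.8) led in the same order, and Cdkn1a (4.13) was the lowest member.

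**Figure D1:**
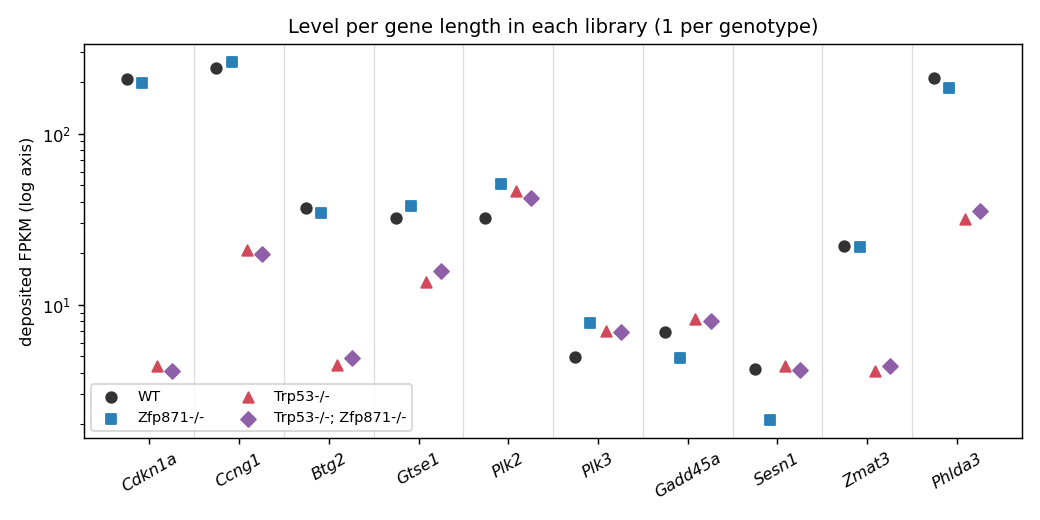
Deposited FPKM (log axis) of each member in the 4 libraries, 1 point per library and genotype, with no error bar because no genotype was repeated. Cdkn1a, Ccng1, Btg2, Gtse1, Zmat3 and Phlda3 are lower in both Trp53-null libraries than in both libraries with Trp53, Cdkn1a from 207 and 196 to 4.37 and 4.13 FPKM, while Plk2, Plk3, Gadd45a and Sesn1 are not.

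The members split in 2 with Trp53 loss. Cdkn1a, Ccng1, Btg2, Gtse1, Zmat3 and Phlda3 fell, whereas Plk2, Plk3, Gadd45a and Sesn1 did not pass the test in either direction. 6 of 10 members thus fell and 0 rose, against 4.31% of the 13306 genes that fell and 5.01% that rose (edgeR quasi-likelihood test, Benjamini-Hochberg adjusted p under 0.05). In single pairs of libraries the same 6 were at least 2-fold lower and 0 members higher in Trp53-/- than in WT (8.88% and 8.9% of all genes), in the double null against Zfp871-/- (6.33% and 5.51%) and in the double null against WT (9.23% and 8.79%). With scaling to total counts Gtse1 missed the 2-fold mark in the last pair (log2 ratio -0.94). The median log2 ratio of the pair Trp53-/- to WT was -1.82 over the 10 members and 0.0 over all genes. The calls were lost when the library of Trp53-/- or that of the double null was left out. In those fits WT and Zfp871-/- were the only pair that gave a residual spread. The lost calls therefore do not show on which library a call rests. The 6 members kept their direction, with Cdkn1a at -5.61 without Trp53-/- and -5.52 without the double null. Gtse1 was at -1.15 and -1.36 in the same order.

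Cdkn1a, which encodes the kinase inhibitor p21, had 13979 counts (WT), 13103 (Zfp871-/-), 341 (Trp53-/-) and 341 (double null). The pair of libraries with Trp53 was far above the pair without it, with no overlap. Normalized to library size, 2.11% of the WT level (counting interval 1.89% to 2.35%) was left in Trp53-/-, a 47.5-fold difference, and the double null likewise kept 2.11% of the Zfp871-/- level. The fitted log2 fold change was -5.57 (SE 0.132, adjusted p = 0.00539, edgeR), the 20th lowest of the 13306 genes. Cdkn1a (ENSMUSG00000023067, chr17:29090976-29100727) shares 273 exon bases with a gene model on the opposite strand, AC167363.2, whose own counts were 125, 133, 1 and 1. The strand setting of the counting is not given, so reads in that stretch cannot be assigned to either gene.

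Ccng1, encoding cyclin G1, which recruits the phosphatase PP2A to Mdm2, had 16224 counts (WT), 17335 (Zfp871-/-), 1607 (Trp53-/-) and 1609 (double null). Its level in Trp53-/- was 8.56% of WT (8.12% to 9.01%) and its fitted log2 fold change was -3.64 (SE 0.132, adjusted p = 0.00697, edgeR). Ccng1 thus kept a larger share of its WT level than Cdkn1a, and the counting intervals of both shares are apart. Btg2, encoding an antiproliferative partner of the CCR4-NOT deadenylase, had 1921, 1782, 269 and 312 counts in the same order of genotypes. It stood at 12.1% of WT in Trp53-/- and fell by 2.93 on the log2 scale (SE 0.129, adjusted p = 0.00861, edgeR). Both genes were high with Trp53 and low without it, with little difference within each pair of libraries.

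Phlda3, whose pleckstrin-homology protein competes with AKT for membrane lipids, had 6256 counts (WT), 5399 (Zfp871-/-), 1080 (Trp53-/-) and 1271 (double null). Its level in Trp53-/- was 14.9% of WT, and the fitted log2 fold change was -2.57 (SE 0.143, adjusted p = 0.00991, edgeR). The share was 19.1% between the double null and Zfp871-/-, the widest gap between Zfp871 backgrounds among the 6, which was not tested. Zmat3, encoding an RNA-binding zinc finger protein that acts on splicing and mRNA stability, had 4800, 4690, 1037 and 1166 counts. It stood at 18.7% of WT in Trp53-/- and fell by 2.37 on the log2 scale (SE 0.112, adjusted p = 0.00861, edgeR). The groups with and without Trp53 did not overlap for either gene.

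Gtse1, encoding a microtubule-associated protein that binds p53 and is itself made mainly in G2 and M phase, had 1671 counts (WT), 1955 (Zfp871-/-), 821 (Trp53-/-) and 1008 (double null). It showed the smallest fall of the 6: 42.4% of the WT level (39.0% to 46.2%) was left in Trp53-/-, and the fitted log2 fold change was -1.25 (SE 0.103, adjusted p = 0.0158, edgeR). The same pair ratio on the Zfp871-null background left 41.8%. Among the 13306 genes the fall of Gtse1 ranked 715th from the lowest, while the other 5 ranked between 20th (Cdkn1a) and 245th (Zmat3).

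Beside these 6 falls, the summed CPM of 10 macrophage markers (Ptprc, Csf1r, Adgre1, Cd68, Lyz2, C1qa, C1qb, Tyrobp, Fcer1g and Ctss) was 68.8 (WT), 78.1 (Zfp871-/-), 962 (Trp53-/-) and 877 (double null). All 10 rose with Trp53 loss (5.01% of all genes) and none was at 0 in any library. In bulk RNA, fewer cells of a type and less RNA per cell cannot be told apart. The part of macrophage RNA in the members' levels was not tested.

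**Figure D2:**
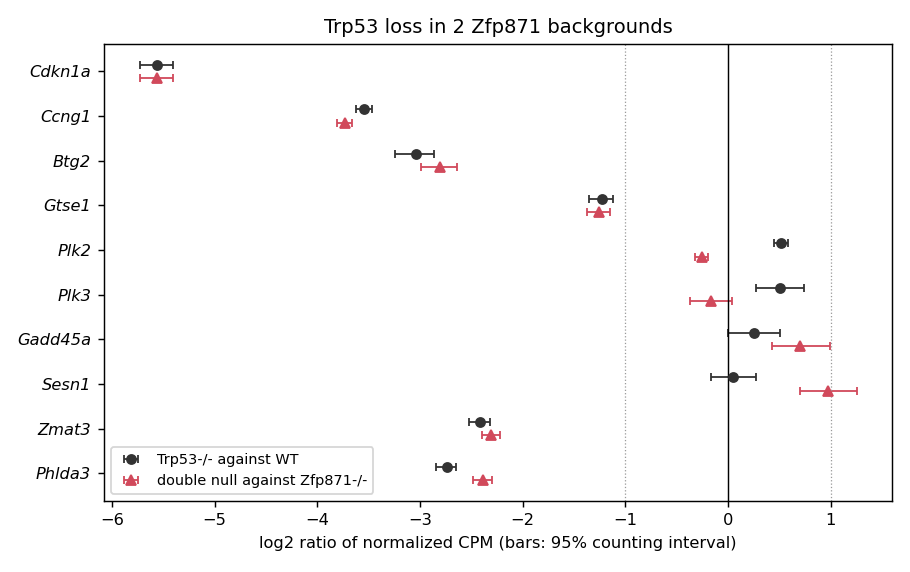
Log2 ratio of normalized CPM for Trp53 loss in each member, as Trp53-/- against WT (black circles) and as the double null against Zfp871-/- (red triangles), with 95% counting intervals as bars and dotted lines at a 2-fold change. The 6 members that fell lie below the 2-fold line in both pairs, from -5.56 for Cdkn1a to -1.23 for Gtse1, while Plk2 and Plk3 are above 0 in the first pair and below 0 in the second.

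Plk2 and Plk3, polo-like kinases of the stress response that p53 can induce, were lowest in WT. Plk2 had 2752 counts (WT), 4266 (Zfp871-/-), 4549 (Trp53-/-) and 4390 (double null), and Plk3 had 239, 372, 392 and 408. Normalized Plk2 was 146 CPM in WT and 189 to 227 in the other 3 libraries, and Plk3 was 12.7 CPM in WT and 17.6 to 19.8 in the others. WT was therefore the library below the rest for both kinases. The fitted Trp53 log2 fold changes were 0.13 for Plk2 (SE 0.215, adjusted p = 0.733) and 0.16 for Plk3 (SE 0.225, adjusted p = 0.666, edgeR). The pair ratios pointed in opposite directions on the 2 backgrounds: Trp53-/- to WT was 0.51 on the log2 scale for Plk2 (0.45 to 0.58) and the double null to Zfp871-/- was -0.26 (-0.32 to -0.20). Without WT the fitted value for Plk2 was -0.20 and for Plk3 -0.16. Without Zfp871-/- the values were 0.44 for Plk2 and 0.48 for Plk3. Neither fit had a Zfp871 term, and the only library with Trp53 was Zfp871-/- in the former and WT in the latter. Over the alternatives with all 4 libraries the adjusted p was 0.464 to 0.894 for Plk2 and 0.438 to 0.911 for Plk3.

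Gadd45a and Sesn1 were lowest in Zfp871-/-. Gadd45a, encoding a stress sensor that binds p21 and PCNA, had 231 counts (WT), 163 (Zfp871-/-), 318 (Trp53-/-) and 328 (double null). Sesn1, encoding a sestrin that restrains mTORC1, had 320, 158, 384 and 383 counts. For Sesn1 the other 3 libraries lay between 16.5 and 17.6 CPM, against 8.40 in Zfp871-/-. The fitted Trp53 log2 fold changes were 0.48 for Gadd45a (SE 0.209, adjusted p = 0.214) and 0.50 for Sesn1 (SE 0.279, adjusted p = 0.296, edgeR). In the pair Trp53-/- to WT, Sesn1 differed by 0.05 (-0.17 to 0.27) and Gadd45a by 0.25 (0.00 to 0.50), so neither of these known p53 targets was lower without Trp53. With WT left out, the fitted values were 0.72 for Gadd45a and 1.01 for Sesn1. That fit had no Zfp871 term, and its only library with Trp53 was Zfp871-/-, where both genes were lowest. With Zfp871-/- left out, Gadd45a was at 0.23 and Sesn1 at 0.00, again with no Zfp871 term and with WT as the only library with Trp53. Over the alternatives with all 4 libraries the adjusted p was 0.162 to 0.587 for Gadd45a and 0.231 to 0.543 for Sesn1. Exons of Gadd45a and Plk3 overlap opposite-strand gene models with at most 19 counts in a library.

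None of the 10 members passed the test for Zfp871 loss, and neither did any of the 13306 genes (0.0% in each direction, edgeR quasi-likelihood test). Zfp871 itself, lowest in both libraries labelled null for it, was not called either (log2 fold change -1.23, adjusted p = 0.874, edgeR). The absence of calls therefore does not show that the members were unchanged. At an unadjusted p under 0.05, 3.83% of all genes and 0 of the 10 members passed; DESeq2 called 4 genes that fell and 3 that rose, and limma-voom 0. The fitted Zfp871 log2 fold changes of the members ran from -0.54 (Sesn1) to 0.30 (Plk3), with adjusted p of 0.874 to 0.999. The 6 members that fell with Trp53 loss lay between -0.09 (Cdkn1a) and 0.22 (Gtse1).

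By pair of libraries, Zfp871-/- differed from WT by at least 2-fold in 1 of 10 members, Sesn1, which was lower (log2 ratio -1.01, -1.30 to -0.74). Of all genes, 3.98% were at least 2-fold lower and 3.52% at least 2-fold higher in this pair. With DESeq2 size factors the Sesn1 ratio came just short of the 2-fold mark. The next largest members were Plk3 at 0.64 (0.40 to 0.88), Plk2 at 0.63 (0.56 to 0.70) and Gadd45a at -0.50 (-0.80 to -0.21). Those 4 are the members that did not fall with Trp53 loss; the comparisons for Trp53 and Zfp871 loss share libraries. Phlda3 (-0.21, -0.26 to -0.16), Gtse1 (0.23, 0.13 to 0.32), Btg2 (-0.11, -0.20 to -0.01), Ccng1 (0.10, 0.07 to 0.13), Cdkn1a (-0.09, -0.13 to -0.06) and Zmat3 (-0.03, -0.09 to 0.03) differed by less than 1.2-fold. Counting intervals that exclude an equal level were common in this pair, with 27.3% of all genes lower and 27.7% higher by that measure. The WT library of this pair also had the highest sum of 6 chondrocyte markers (Col2a1, Acan, Sox9, Col9a1, Col11a2 and Matn1), at 768, 81.0, 36.7 and 44.6 CPM. Most of the WT sum was Col2a1 (618 CPM) and Acan (102 CPM). Col9a1 (74 and 3 counts) and Col11a2 (38 and 23) were also higher in WT than in Zfp871-/-. Sox9 was at 42.4 CPM in WT and 41.0 in Zfp871-/-, and Matn1 had 0 and 3 counts. The part of chondrocyte RNA in the members' ratios was not tested.

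On the Trp53-null background, 0 of the 10 members differed by 2-fold between the double null and Trp53-/-, against 1.01% of all genes lower and 0.819% higher. The log2 ratios ran from -0.14 (Plk2, -0.20 to -0.08) to 0.21 (Gtse1, 0.07 to 0.34). Sesn1 was at -0.09 (-0.30 to 0.12), Plk3 at -0.03 (-0.23 to 0.17) and Gadd45a at -0.04 (-0.27 to 0.18), so the differences these genes showed between Zfp871-/- and WT were not seen in the libraries without Trp53. The difference between backgrounds in the Zfp871 ratio was 0.92 for Sesn1 (counting interval 0.57 to 1.26), -0.77 for Plk2 (-0.87 to -0.68), -0.67 for Plk3 (-0.98 to -0.36) and 0.45 for Gadd45a (0.09 to 0.82). For Cdkn1a it was 0.00 (-0.22 to 0.22) and for Gtse1 -0.02 (-0.18 to 0.14). These intervals hold counting error only, and with 1 library per genotype the difference could not be tested.

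**Figure D3:**
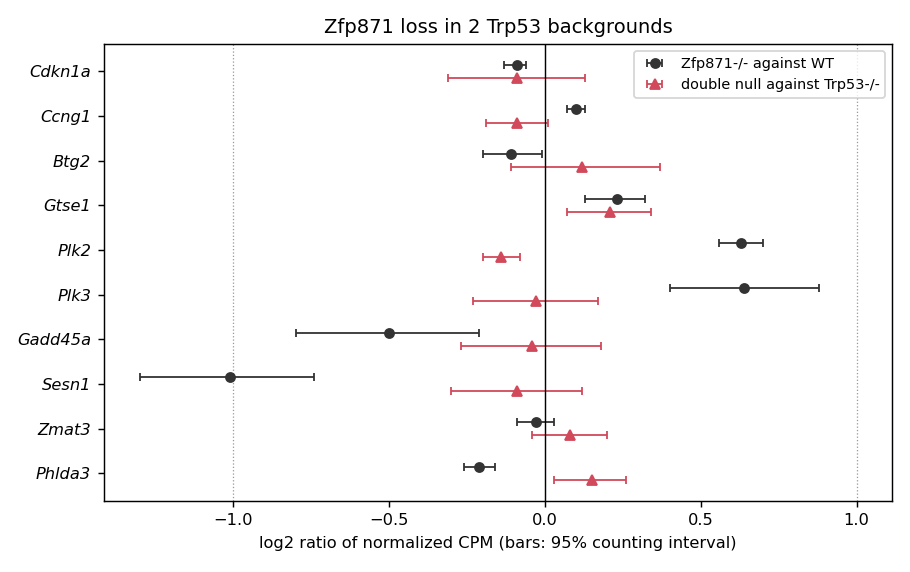
Log2 ratio of normalized CPM for Zfp871 loss in each member, as Zfp871-/- against WT (black circles) and as the double null against Trp53-/- (red triangles), with 95% counting intervals and dotted lines at a 2-fold change. Sesn1 (-1.01), Gadd45a (-0.50), Plk2 (0.63) and Plk3 (0.64) lie away from 0 with Trp53, and all 10 members lie between -0.14 and 0.21 without it.

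The paralogs of the members show which branch of each family moved. Of 19 paralogs, 17 passed the filter; Zmat4 had 0 counts in each library, which allows up to 3 counts (0.129 to 0.159 CPM), and Phlda2 had at most 3. With Trp53 loss 2 of the 17 fell and 1 rose (4.31% and 5.01% of all genes), with a median of 0.02. The sestrins split against the member of their family: Sesn2 had 2088 counts (WT), 2232 (Zfp871-/-), 900 (Trp53-/-) and 839 (double null) and fell by 1.57 (SE 0.125, adjusted p = 0.0148, edgeR). Sesn3, with 1468, 966, 534 and 492 counts, fell by 1.47 (SE 0.151, adjusted p = 0.022, edgeR). Sesn1 was thus the sestrin that did not fall in these cells.

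Among the polo-like kinases, Plk4, the kinase of centriole duplication, rose by 1.30 (SE 0.134, adjusted p = 0.0223, edgeR) with 490, 626, 1561 and 1702 counts. Plk1, the main mitotic kinase of the family, had 762, 1242, 1839 and 2275 counts and a log2 fold change of 0.81 that missed the threshold (adjusted p = 0.0523). Plk2 and Plk3 had no such step between the libraries with and without Trp53. Tob1, an antiproliferative relative of Btg2, had 1459, 659, 322 and 379 counts and a log2 fold change of -1.75 (SE 0.347, adjusted p = 0.056, edgeR). Its WT library stood above the other 3. With the DESeq2 test, DESeq2 size factors, limma-voom or no filter the paralogs that fell numbered 3 and those that rose 2. Of all genes, 5.98% fell and 5.97% rose with the DESeq2 test, and 5.08% and 5.61% with limma-voom. With no filter the shares were 4.52% and 4.22%, and for DESeq2 size factors no share was taken. Without WT 4 fell and 5 rose (13.3% and 12.5% of all genes), and without Zfp871-/- 3 fell and 4 rose (18.8% and 19.0% of all genes).

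The other kinase inhibitors of the CDKN1 family did not move with Cdkn1a. Cdkn1b (p27) had a Trp53 log2 fold change of 0.18 and Cdkn1c (p57) of -0.05, neither called. Ccng2 (0.02), Btg1 (0.22), Btg3 (-0.03), Tob2 (0.18), Zmat1 (-0.07), Zmat2 (-0.18), Zmat5 (-0.21) and Phlda1 (0.02) were likewise near 0 beside the falls of Ccng1, Btg2, Zmat3 and Phlda3. Gadd45b (0.35) and Gadd45g (0.53) were not called and had the same sign as Gadd45a. In Zfp871-/- against WT, Cdkn1c was higher by 1.08 on the log2 scale (0.86 to 1.32) and Tob1 lower by 1.14 (log2 ratio -1.14, -1.28 to -1.01), a size that among the members was approached only by Sesn1.

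**Figure D4:**
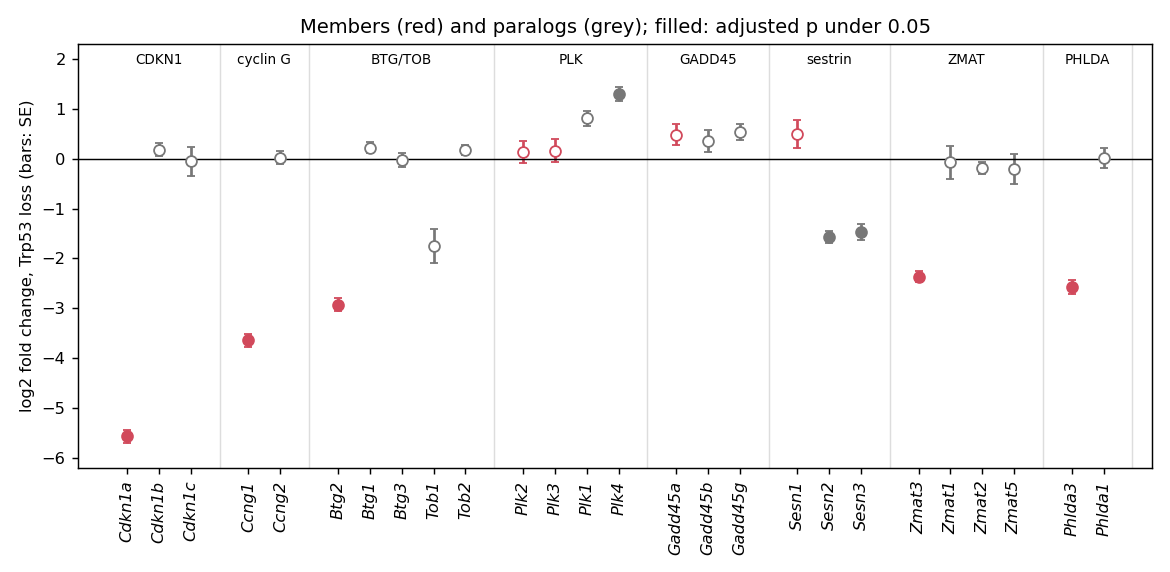
Log2 fold change with Trp53 loss from the additive edgeR fit for members (red) and their kept paralogs (grey) by gene family, bars showing the SE and filled points an adjusted p under 0.05. In the CDKN1, cyclin G, BTG/TOB, ZMAT and PHLDA families the member has the lowest value, whereas in the sestrin family Sesn2 (-1.57) and Sesn3 (-1.47) are below Sesn1 (0.50).

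Other p53 targets act mainly in feedback, death, DNA repair and metabolism. Of 33, 22 fell, 0 rose and 11 were not called, while 4.31% of all genes fell and 5.01% rose. The median fitted log2 fold change was -1.53 against 0.0 over all genes. The count that fell was 24 without WT and 25 without Zfp871-/-, in fits where 13.3% and 18.8% of all genes fell. The lowest were Eda2r, a receptor of the TNF receptor family (-7.06, with 2107, 2557, 16 and 26 counts), Perp, a desmosome protein tied to apoptosis (-5.46, with 1052, 439, 9 and 28) and Trp53inp1, a stress-induced partner of p53 (-4.49, with 4305, 3972, 241 and 199). Cdkn1a lay between the values of Eda2r and Perp. At the other end, Ddb2 (0.66), Gls2 (0.65) and Tigar (0.11) were not called, like the 4 members that did not fall. This list was chosen with earlier results of these libraries known and is not independent evidence of its direction.

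Genes of the step that p21 blocks were examined as the other side of growth arrest. Of 17 cyclin, CDK, RB-family and E2F genes, 5 rose and 2 fell with Trp53 loss (5.01% and 4.31% of all genes), with a median of 0.50. Those that rose were Ccna2 (1.07), Pcna (0.98), Cdk2 (0.96), E2f1 (0.79) and Rbl1 (0.70), which serve S phase entry and DNA synthesis or, for Rbl1, restrain E2F factors. Rb1 fell by 1.10 (adjusted p = 0.0406) and Ccnd2, encoding a D-type cyclin, by 0.89 (adjusted p = 0.0298, edgeR). E2f2 (1.70, adjusted p = 0.131) and Ccne2 (1.11, adjusted p = 0.0505) were higher without passing the test, and Ccnd1 was at -0.38. With scaling to total counts, 8 rose and 1 fell, and the share of all genes was not taken. The median was 0.62 with that scaling and ran from 0.35 to 0.54 with each library left out in turn.

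Gtse1 went against the genes with which it shares its peak in the cell cycle. Of 23 genes of G2 and M phase, 13 rose and 0 fell with Trp53 loss (5.01% and 4.31% of all genes). Their median was 0.86, with values from 0.36 (Hmmr) to 1.25 (Cks2), while Gtse1 fell by 1.25. The most positive were Cks2 (1.25), a CDK-binding subunit, Aurkb (1.24), the kinase of the chromosomal passenger complex, and Bub1 (1.14), a spindle checkpoint kinase; the least positive, Hmmr (0.36), Cdc20 (0.45) and Kif20a (0.45), were not called. With all 4 libraries the number that rose ran from 11 to 18. The number was 11 without the Zfp871 covariate (share of all genes not taken) and 18 with no filter on low counts (4.22% of all genes). It was 18 without WT and 23 without Zfp871-/- (12.5% and 19.0% of all genes rose), and all 23 values were above 0 with each library left out in turn. A relation of the same kind was seen for Ckap2, a spindle protein listed here under p53 targets and picked after its value was seen, which fell by 0.81 (adjusted p = 0.0312, edgeR). In Zfp871-/- against WT the median log2 ratio of the 23 genes was 0.49 and Gtse1 was at 0.23. In the double null against Trp53-/- the median was 0.11 and Gtse1 was at 0.21.

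**Figure D5:**
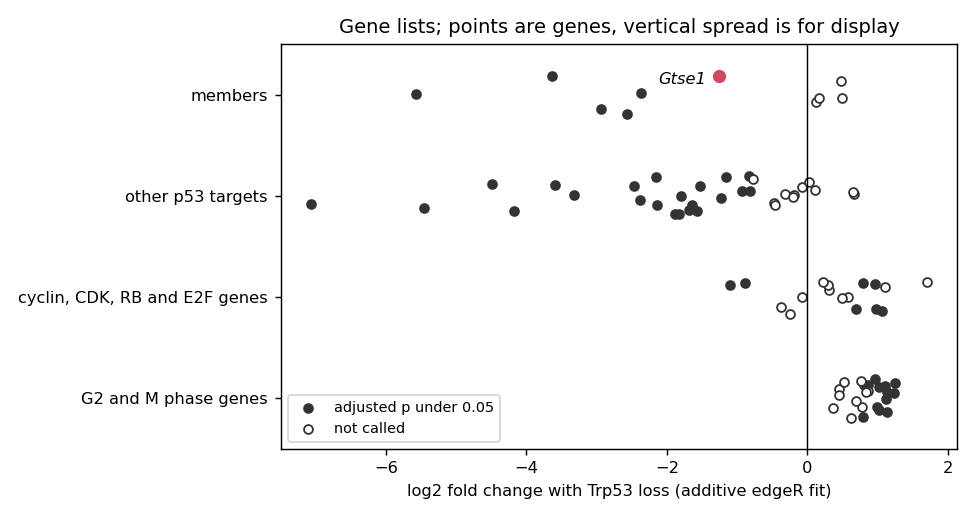
Log2 fold change with Trp53 loss from the additive edgeR fit for the members and 3 lists, each point a gene, filled at an adjusted p under 0.05, with vertical spread for display only. Gtse1 (red, -1.25) is below 0 while all 23 genes of G2 and M phase lie between 0.36 and 1.25.

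The genes nearest to each member in pattern over the 4 libraries were found by the distance between mean-centred log2 CPM values, among 9310 other genes with a mean of at least 10 CPM. The number of genes within a distance of 0.3 was 0 for Cdkn1a, 1 for Ccng1, 4 for Btg2, 5 for Phlda3 and 6 for Zmat3. It was 17 for Sesn1, 31 for Gtse1, 314 for Gadd45a, 465 for Plk2 and 595 for Plk3. Few genes thus had a pattern near those of the first 5 members, whose highest library was 5.37-fold (Zmat3) to 50.5-fold (Cdkn1a) above the lowest. Many had one near those of Plk2 (1.55-fold) and Plk3 (1.56-fold), whose levels varied little. These numbers thus largely repeat the size of each member's change and are not a separate trait. The nearest gene to Cdkn1a was Gm42047, a long noncoding RNA gene with 6330, 6770, 176 and 136 counts (distance 0.303), and then Gm37795 (0.359). For Ccng1 they were Ak1 (0.170), an adenylate kinase listed here under p53 targets, and Crip2 (0.523). For Zmat3 they were Arap2 (0.132) and the repair nuclease Ercc5 (0.251), also from that list.

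For Btg2 the nearest were Igsf9b (0.147) and Slc19a2 (0.176), a thiamine transporter, and for Phlda3 Pdgfa (0.181), a growth factor, and Def6 (0.191). Gtse1 had Gm2115 (0.0711) and Nav2 (0.128) nearest, neither of them from the list of G2 and M phase genes. The members that did not fall lay very close to genes of other families: Plk2 to Stk40 (0.0191) and Shc2 (0.0465), and Plk3 to Anxa6 (0.0334) and Snx9 (0.0434). Gadd45a had Rpia (0.0622) and Pmvk (0.0718) nearest, and Sesn1 Ndufa1 (0.0280) and Rassf2 (0.121). With 4 libraries, these distances describe likeness over 4 points.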

How the data were processed

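RNA of 4 MEF libraries, 1 per genotype, was sequenced. The deposited table holds raw counts per Ensembl gene from the authors; the submitters' processing notes name fastp, STAR, featureCounts and mm10, with no versions and no strand setting. The deposited per-library values carry no unit in their header and were taken as the authors' FPKM, since dividing the count by 1 length for a gene and 1 factor for a library gives each of them; these lengths matched GENCODE M21 exon lengths within 0.1% for 95.0% of 10873 genes tested. FPKM served only to compare levels between genes.

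Counts were normalized by TMM in edgeR 4.0.16 (R 4.3.3; factors 0.9783, 0.9437, 1.0406 and 1.041 for WT, Zfp871-/-, Trp53-/- and the double null). Genes with at least 1 CPM in at least 2 libraries were kept (13306). The quasi-likelihood fit of Trp53 + Zfp871 (common dispersion 0.0302, 1 residual degree of freedom) was adjusted by Benjamini-Hochberg over all kept genes at 0.05. The SE is the log2 fold change divided by the root of the F statistic. Pair ratios used a prior count of 2, and a call is at least 2-fold. The intervals leave out all but counting error, and PCR copies were not told apart by molecular identifiers. No genotype was repeated, so p-values rest on how well both backgrounds gave the same difference. The variance behind them is moderated in edgeR with that of all other genes. They do not measure variation between repeated cultures. On simulated counts for the 13306 genes, the Trp53 fit recovered 58% of genes changed 2-fold and 100% changed 4-fold, with 11 false calls. The Zfp871 fit recovered 56% and 99%, with 6 false calls. The simulated counts had the common dispersion for each gene and the same change on both backgrounds. The rates hold for that setting and are not error rates of the real calls. Alternatives were DESeq2 1.42.0, limma-voom (limma 3.58.1), other size factors, no filter, no covariate, another prior count and leaving out each library. The fits with a library left out had Trp53 as the only factor, with no Zfp871 term.

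Members, lists and tests were chosen with earlier results of these data known. Named genes are the members and their paralogs, the 3 lowest and 3 highest fitted Trp53 values of each list (called genes of the cyclin list were added), the 2 nearest patterns of each member, and the targeted genes. Proteins were not used here.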

Additional observations from a re-analysis of the deposited data

Results flagged for a closer look

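In Plk2 and Phlda3 the Zfp871 ratio had opposite signs on the 2 Trp53 backgrounds, with both counting intervals away from 0. Plk2 was higher in Zfp871-/- than in WT (log2 ratio 0.63) whereas the double null was below Trp53-/- (-0.14), a difference of -0.77. Phlda3 was lower in Zfp871-/- than in WT (-0.21) whereas the double null was above Trp53-/- (0.15), a difference of 0.36. With 1 library per genotype the difference between backgrounds was not tested.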

How the results depend on the processing

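No paired analysis was possible because each genotype has 1 library and the labels carry no replicate numbers. The 6 falls with Trp53 loss were called under each alternative that kept all 4 libraries, with Cdkn1a between -5.57 and -5.45 and Gtse1 between -1.25 and -1.13. Leaving out 1 library, with the lone library of a Trp53 state assumed to vary like the others, kept the direction of the 6 falls in each fit. Their calls were lost without Trp53-/- or the double null. They were kept without WT or Zfp871-/-, where falls over all genes were also more common than with all 4 libraries. The folds stayed as large where the calls were lost (Cdkn1a -5.61 without Trp53-/- and -5.52 without the double null), and 0 of all 13306 genes were called in those fits. The number that rose was 0 with all libraries. Called rises appeared without WT (Gadd45a at 0.72 and Sesn1 at 1.01) and without Zfp871-/- (Plk2 at 0.44 and Plk3 at 0.48). Rises over all genes were also more common in those fits than with all libraries, so they are not particular to the members. Without WT the Trp53 values of Plk2 (-0.20) and Plk3 (-0.16) reversed. The fits with a library left out had no Zfp871 term. Their only library with Trp53 was Zfp871-/- when WT was left out, and WT when Zfp871-/- was left out. The count of members 2-fold or more below WT in Zfp871-/- went from 1 to 0 with DESeq2 size factors, and that of members at least 2-fold higher in the double null than in Zfp871-/- from 0 to 1 with total counts (Sesn1, 1.11). Total counts also took Gtse1 below the 2-fold mark in the double null against WT (-0.94). Zfp871 values near 0 changed sign: Ccng1 to 0.00 with limma-voom and -0.02 with total counts, Btg2 to -0.04 with limma-voom, -0.08 with no covariate and -0.03 with total counts, and Zmat3 to -0.01 with no covariate and 0.00 with total counts. The cause of these changes was not tested. Total counts moved the median of all genes by 0.14 in the double null against Zfp871-/- and by 0.09 in Trp53-/- against WT. Depth limits little here, since each member had at least 158 counts in a library; the lack of repeated cultures limits each comparison.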
